A study of Mus musculus with 12 samples.

Results

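The genes described are 10 members of the paired immune receptor families and their signalling partner: Sirpa, Sirpb1a, Lilrb4a, Lair1, Cd300a, Cd300c, Cd300e, Cd300lf, Cd72 and Tyrobp. They were taken by gene symbol from a table of 27179 genes, and all 10 had reads in each of the 12 libraries and passed the filter on low counts, as did 13415 genes in all. The libraries came from splenic conventional dendritic cells of female C57/BL6 mice, either type 1 (cDC1) or type 2 (cDC2). Mice were wild type (WT) or carried the label zfp366-/-, the gene of DC-SCRIPT, a nuclear protein with zinc fingers that dendritic cells express. Each of the 4 groups held 3 libraries, and each of the 6 mouse pools gave 1 cDC1 and 1 cDC2 library. The number of mice in a pool, their age, the kind of allele and the markers used to sort the cells are not given in the sources used here. All groups shared the strain, the sex and a collagenase and DNAse digestion of the spleen.

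Paired receptors are families in which closely related proteins send opposite signals. Inhibitory members carry tyrosine motifs (ITIMs) in a long cytoplasmic tail, which recruit phosphatases such as SHP-1 once phosphorylated. Activating members have a short tail and a charged residue in the membrane, through which they associate with adaptor chains such as DAP12, the product of Tyrobp, or the Fc receptor gamma chain, the product of Fcer1g; the motifs of these chains (ITAMs) recruit the kinase Syk. On myeloid cells these receptors read signals such as CD47 on healthy cells, collagen in the matrix and phospholipids on dying cells. In the mouse spleen SIRP alpha protein is a common surface marker of cDC2.

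The libraries labelled zfp366-/- are called KO-labelled below. The targeted gene was checked first: Zfp366 stood at 103 ± 44.0 CPM in WT cDC1 and 47.5 ± 1.85 CPM in KO-labelled cDC1 (CPM, read counts scaled to a common library total; mean ± SD, n = 3 in every group here and below). It was lower there by the test (log2 fold change -1.12, edgeR adjusted p 0.0326), a call lost without WT cDC1 replicate 2, any 1 KO-labelled cDC1 library or KO-labelled cDC2 replicate 3, and in the fit on the compared libraries only (adjusted p 0.0562 to 0.142). In cDC2 it stood at 57.4 ± 4.91 and 66.9 ± 12.9 CPM, so its count was not lower under the KO label in that subset (log2 fold change 0.22, adjusted p 1, edgeR). A count over the whole gene does not show whether part of it is deleted. Total counts ran from 11330503 to 36761685 a library. WT cDC1 replicate 1 stood apart from its group: leaving it out moved the number of genes called between the genotypes in cDC1 from 714 to 3052, whereas leaving out KO-labelled cDC1 replicate 1 gave 384. Member calls that differ with replicates 2 and 3 only are given beside the result. Of the 9 cDC1 markers, 8 were higher in WT cDC1 than in WT cDC2, and all 8 cDC2 markers were lower, as the subset labels say. Of all 13415 genes tested, 1389 were higher and 1457 lower in that comparison.

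Promoter sequence was looked at for the members that moved between the genotypes in cDC1, because 5 of them rose in the same libraries. RefSeq promoter windows on GRCm38.p6, of 300 bases each, were matched by symbol for 7 members: Sirpb1a, Lair1, Cd300a, Cd300c, Cd300e, Cd300lf and Cd72. The 250 bases before the start are printed 5′ to 3′ for the 5 of these whose level was called different in cDC1: Cd72 (chr4:43454627-43454876, minus strand), Lair1 (chr7:4063205-4063454, minus strand), Cd300a (chr11:114889791-114890040, plus strand) and Sirpb1a (chr3:15426428-15426677, minus strand), which were higher under the KO label, and Cd300e (chr11:115062040-115062289, minus strand), which was lower. Capitals mark GAGGAA or its reverse complement, the core of a box bound by the myeloid factor PU.1, and in Sirpb1a a repeat of the IRF half-site.
Cd72: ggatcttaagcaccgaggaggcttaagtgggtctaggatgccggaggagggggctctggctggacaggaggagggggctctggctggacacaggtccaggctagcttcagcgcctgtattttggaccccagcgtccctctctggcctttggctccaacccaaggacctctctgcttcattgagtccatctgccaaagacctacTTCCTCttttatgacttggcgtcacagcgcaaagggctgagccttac
Lair1: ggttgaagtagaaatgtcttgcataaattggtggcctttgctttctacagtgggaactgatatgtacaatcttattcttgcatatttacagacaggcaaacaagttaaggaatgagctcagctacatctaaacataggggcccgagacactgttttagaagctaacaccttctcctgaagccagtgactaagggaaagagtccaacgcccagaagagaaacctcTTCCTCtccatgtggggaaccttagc
Cd300a: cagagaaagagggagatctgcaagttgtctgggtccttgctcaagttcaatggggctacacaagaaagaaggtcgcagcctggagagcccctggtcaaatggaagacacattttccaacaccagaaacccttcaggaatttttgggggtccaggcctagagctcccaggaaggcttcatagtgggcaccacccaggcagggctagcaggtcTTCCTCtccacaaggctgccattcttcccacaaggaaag
Sirpb1a: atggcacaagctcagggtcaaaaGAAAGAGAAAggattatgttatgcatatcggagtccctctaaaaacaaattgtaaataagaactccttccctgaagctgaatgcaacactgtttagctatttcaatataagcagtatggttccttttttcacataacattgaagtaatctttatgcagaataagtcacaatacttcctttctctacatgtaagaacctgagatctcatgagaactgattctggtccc
Cd300e: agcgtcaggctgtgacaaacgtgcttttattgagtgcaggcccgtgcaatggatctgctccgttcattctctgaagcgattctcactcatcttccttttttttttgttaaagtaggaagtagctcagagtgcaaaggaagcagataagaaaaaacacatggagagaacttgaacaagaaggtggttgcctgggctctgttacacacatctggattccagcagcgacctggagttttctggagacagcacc
The marked GAGGAA match ended 41, 20 and 33 bases before the start in Cd72, Lair1 and Cd300a. The windows of Sirpb1a, also higher, and of Cd300e held none, whereas that of Cd300lf, which did not pass the test, held 2. GAGGAA, which was searched on both strands after the windows had been seen, was found in 4 of the 7 members' windows (Cd72, Lair1, Cd300a and Cd300lf) and in 28.3% of all 32851 windows. The composite element of ETS and IRF factors (EICE), also searched on both strands, was found in 0 of the 7 and in 2.72% of all windows. A direct repeat of the IRF half-site, as in the interferon-stimulated response element, was found in Sirpb1a and Cd300c and in 3.44% of all windows. These matches describe letters only, since no binding was measured. The windows of Lair1, Cd300a, Cd300e and Cd72 lay inside the gene's span and not before it. On the minus strand that span reaches 4073567 for Lair1, 115066676 for Cd300e and 43455102 for Cd72, and Cd300a begins at 114889152. Other starts of these genes were not looked at.

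Between the genotypes in cDC1, 5 members were higher in KO-labelled cells (Cd72, Sirpa, Lair1, Cd300a and Sirpb1a), 1 was lower (Cd300e), and 4 did not pass the test (Lilrb4a, Cd300lf, Cd300c and Tyrobp). Of all genes tested 5.32% were called, 3.6% higher and 1.72% lower. A gene was called at an adjusted p below 0.05 in edgeR's quasi-likelihood test, with Benjamini-Hochberg adjustment over all genes tested. The members' median log2 fold change was 1.06, against -0.0008 over all genes tested. In bulk samples, a change in the share of cells that express a gene and a change in the RNA of each cell cannot be told apart.

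**Figure D1:**
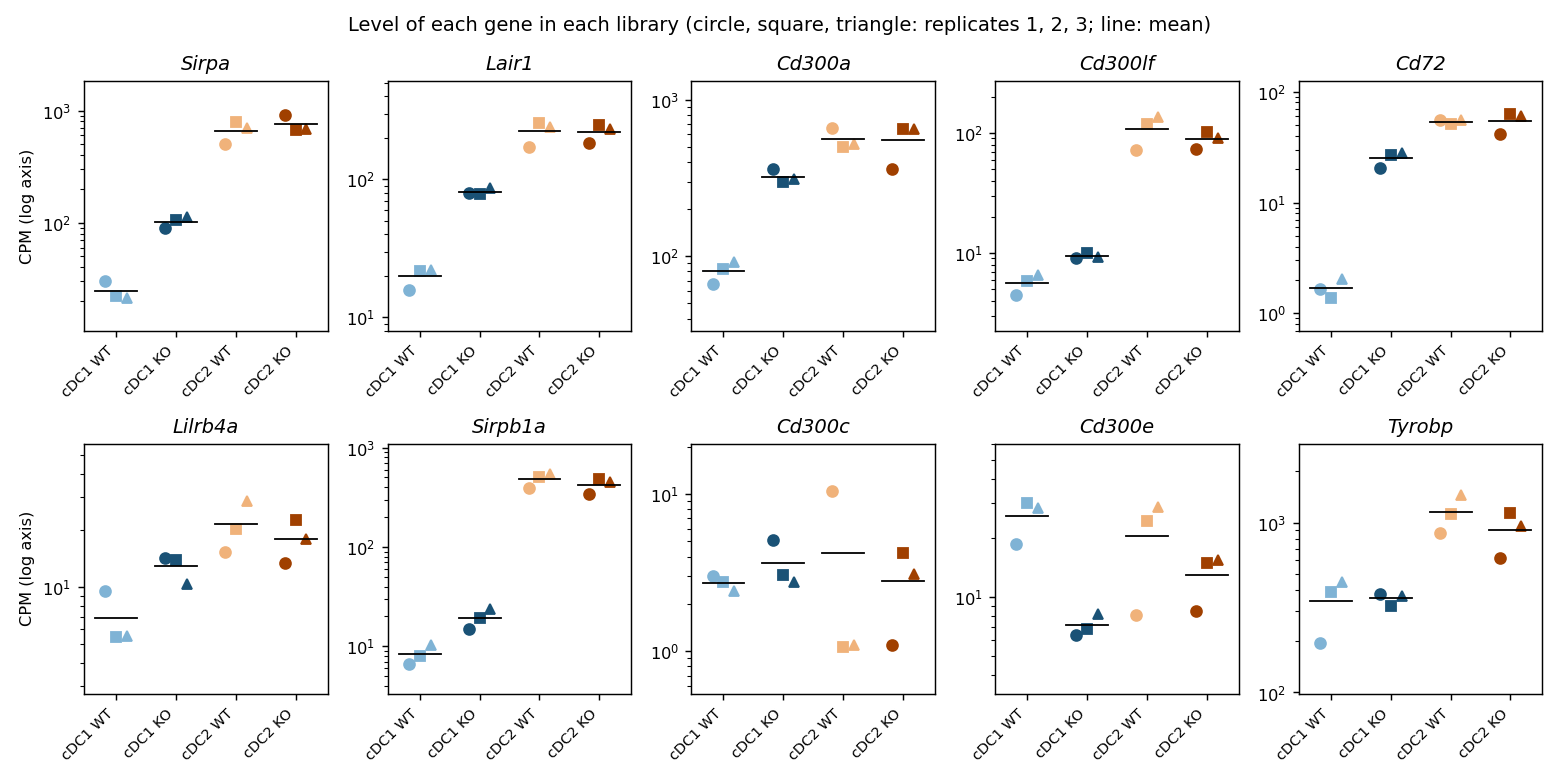
CPM of each of the 10 genes in each library on a log axis, by subset and genotype label; symbols mark replicates 1, 2 and 3 and lines the means of 3 libraries. Cd72, Sirpa, Lair1 and Cd300a in KO-labelled cDC1 lie between the WT cDC1 and the cDC2 libraries, and Cd300e lies below WT cDC1.

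Among the inhibitory receptors, Cd72 moved most. CD72 is a C-type lectin-like receptor best known from B cells, and its ligand is the semaphorin CD100. Its gene lies on chromosome 4, from 43447724 to 43455102 on the minus strand. WT cDC1 replicates 1, 2 and 3 had 1.65, 1.38 and 2.02 CPM of Cd72, from 27 to 35 reads a library, and KO-labelled cDC1 had 20.6, 26.9 and 27.9 CPM. Every KO-labelled library lay above every WT library. The log2 fold change was 3.90 (SE 0.26, edgeR adjusted p 1.14e-05), which is 14.9-fold. In cDC2 Cd72 stood at 55.3, 51.0 and 55.1 CPM in WT and at 41.4, 62.5 and 60.1 CPM under the KO label, with overlapping libraries. B cell markers did not move with it: 0 of the 5 that could be tested were called in cDC1, and their sum over 7 genes was 35.5 to 67.9 CPM in WT cDC1 and 47.5 to 61.6 CPM in KO-labelled cDC1.

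Sirpa encodes SIRP alpha, the inhibitory receptor for CD47, and spans chromosome 2 from 129591042 to 129632228 on the plus strand. WT cDC1 had 30.3, 22.4 and 21.5 CPM of Sirpa, and KO-labelled cDC1 had 88.9, 105.5 and 112 CPM, without overlap. Sirpa rose by a log2 fold change of 2.05 (SE 0.25, edgeR adjusted p 0.000394). The WT cDC2 libraries had 499, 785 and 706 CPM and the KO-labelled ones 917, 665 and 680.0 CPM. In cDC2 replicate 1 was the lowest of the WT and the highest of the KO-labelled libraries. Whether SIRP alpha served to sort the subsets is not given in the sources used here.

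Lair1 encodes the inhibitory collagen receptor LAIR-1 and lies on chromosome 7, from 4007073 to 4073567 on the minus strand. Its level was 15.8, 21.6 and 22.1 CPM in WT cDC1 and 79.8, 77.9 and 86.2 CPM in KO-labelled cDC1. Both groups were tight and far apart, at 19.8 ± 3.47 and 81.3 ± 4.34 CPM. The log2 fold change of Lair1 was 2.03 (SE 0.22, edgeR adjusted p 0.000184). In cDC2 it stood at 172, 259 and 240.3 CPM in WT and at 185, 248 and 234 CPM under the KO label, replicate 1 being the lowest of each.

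Cd300a encodes an inhibitory receptor for phosphatidylserine and phosphatidylethanolamine, lipids exposed on dying cells. It was at 66.4, 83.5 and 92.4 CPM in WT cDC1 and at 359, 297 and 309 CPM in KO-labelled cDC1, again without overlap. Its log2 fold change was 1.99 (SE 0.26, edgeR adjusted p 0.000665). In cDC2 the WT libraries had 658, 498 and 524 CPM and the KO-labelled ones 362, 646 and 652 CPM. Replicate 1 was thus the highest WT and the lowest KO-labelled cDC2 library, the reverse of its place for Sirpa.

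Lilrb4a, which encodes the ITIM receptor gp49B, and Cd300lf, which encodes an inhibitory CD300 receptor, did not pass the test in cDC1. Lilrb4a stood at 9.62, 5.46 and 5.55 CPM in WT and at 14.4, 13.9 and 10.5 CPM in KO-labelled cDC1 (log2 fold change 0.91, SE 0.32, edgeR adjusted p 0.137). Cd300lf stood at 4.45, 5.82 and 6.59 CPM in WT and at 9.03, 9.91 and 9.17 CPM in KO-labelled cDC1 (log2 fold change 0.74, SE 0.26, edgeR adjusted p 0.136). For both genes the KO-labelled libraries nevertheless lay above all WT libraries. Such a gap between groups was seen for 8 of the 10 members, 7 higher and 1 lower, and for 26.9% of all genes tested. With replicates 2 and 3 only, both genes were called, at 1.12 (edgeR adjusted p 0.00217) for Lilrb4a and 0.60 (adjusted p 0.00708) for Cd300lf. That fit called 6438 of the 13461 genes it tested. Leaving out WT cDC1 replicate 1 alone was enough for Lilrb4a (1.23, adjusted p 0.0184), in a fit that called 3052 of 13710 genes. Lilrb4a has a near-identical neighbour, Lilr4b, so their separate counts are uncertain. Lilr4b itself stood at 4.68 ± 1.38 and 8.08 ± 0.646 CPM in WT and KO-labelled cDC1 and was not called (0.79, adjusted p 0.297).

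The 3 activating receptors did not move one way. Sirpb1a, a DAP12-coupled SIRP beta receptor, had 6.65, 8.06 and 10.4 CPM in WT cDC1 and 15, 19.2 and 23.7 CPM in KO-labelled cDC1. It rose by a log2 fold change of 1.21 (SE 0.25, edgeR adjusted p 0.0142). That call was lost without KO-labelled cDC1 replicate 2 (adjusted p 0.0551), KO-labelled replicate 3 (0.0817) or WT cDC1 replicate 2 (0.0795). Its close copies gave like values: Sirpb1b had a log2 fold change of 1.54 (adjusted p 0.00595) and Sirpb1c of 1.13 (adjusted p 0.0116), and reads may have been split among the 3 copies.

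Cd300e, which encodes an activating CD300 receptor of monocytes, was the only member to fall. WT cDC1 had 18.6, 30.3 and 28.3 CPM of Cd300e, and KO-labelled cDC1 had 6.37, 6.87 and 8.19 CPM. Its highest KO-labelled library was below its lowest WT library. Cd300e fell by 1.85 on the log2 scale (SE 0.42, edgeR adjusted p 0.0219), a 3.60-fold difference. This call was lost without WT cDC1 replicate 2 (adjusted p 0.0914) or 3 (0.0730), or without KO-labelled cDC1 replicate 1 (0.102), 2 (0.102) or 3 (0.0742). With replicates 2 and 3 only, the log2 fold change was -1.98 (edgeR adjusted p 5.7e-06), in a fit that called 6438 of 13461 genes.

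Cd300c, classed with the activating CD300 receptors, was low throughout, with 12 to 298 reads a library. It had 3.02, 2.76 and 2.43 CPM in WT cDC1 and 5.13, 3.04 and 2.74 CPM in KO-labelled cDC1 (log2 fold change 0.41, SE 0.77, edgeR adjusted p 0.817). Its largest departure was 1 library: WT cDC2 replicate 1 had 10.4 CPM, against 1.07 and 1.09 CPM in the other WT cDC2 libraries.

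Tyrobp, the gene of the adaptor DAP12, did not pass the test. It had 196, 390 and 448 CPM in WT cDC1 and 380.1, 324 and 370 CPM in KO-labelled cDC1 (log2 fold change 0.05, SE 0.32, edgeR adjusted p 0.952). Replicate 1 was the lowest WT library, and with replicates 2 and 3 only the difference was -0.30 (adjusted p 0.119). Fcer1g, the gene of the other adaptor chain, stood in contrast at 21.7, 29.2 and 33.4 CPM in WT cDC1 and at 424, 373 and 416 CPM in KO-labelled cDC1. The log2 fold change of Fcer1g was 3.85 (SE 0.30, edgeR adjusted p 3.24e-05), with no overlap. In cDC2 Fcer1g stood at 519 ± 132 CPM in WT and 566 ± 168 CPM under the KO label.

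**Figure D2:**
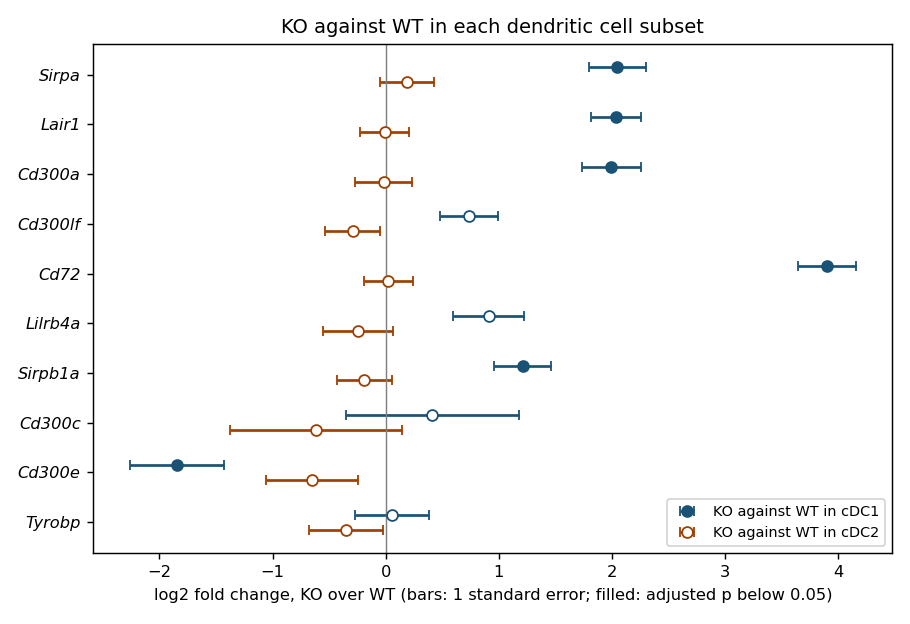
Log2 fold change between the genotype labels for the 10 genes in cDC1 and in cDC2, with bars of 1 standard error and filled points where the adjusted p was below 0.05. In cDC1, 5 genes are filled to the right and Cd300e to the left, and in cDC2 no point is filled.

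In cDC2, 0 of the 10 members were called between the genotypes, as were 0% of all genes tested. At an unadjusted p under 0.05 the members' count was also 0 in edgeR, and DESeq2 and limma-voom called 0 of them. The libraries of both labels overlapped for all 10 members, and did not for 5.88% of all genes tested. The replicate 1 libraries of this subset had log2 ratios of KO-labelled to WT of 0.88 for Sirpa, -0.86 for Cd300a and -3.25 for Cd300c. With replicates 2 and 3 only, 2 members were called, Cd300c higher (1.75, edgeR adjusted p 0.0255) and Cd300e lower (-0.81, adjusted p 0.0124). That fit called 1039 of the 13461 genes it tested. Cd300e had 8.03, 24.3 and 28.8 CPM in WT cDC2 and 8.48, 14.9 and 15.4 CPM under the KO label, so its replicate 1 libraries were the lowest of both groups. The median standard error over all genes was 0.33 in either genotype comparison. Differences well above that size could also be missed at this depth and number of libraries. In cDC1, for instance, Lilrb4a at 0.91 (SE 0.32) and Cd300lf at 0.74 (SE 0.26) did not pass.

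The difference between the genotype effects of the subsets was tested directly. It was called for 4 of the 10 members, all with the larger effect in cDC1, against 1.42% of all genes tested, 1.27% with the larger value in cDC1. The difference in log2 fold change was 3.87 for Cd72 (SE 0.33, edgeR adjusted p 0.000186), 2.04 for Lair1 (SE 0.31, 0.00419), 2.01 for Cd300a (SE 0.36, 0.0127) and 1.86 for Sirpa (SE 0.34, 0.0147). For Sirpb1a it was 1.40 and for Cd300e -1.20, which did not pass (adjusted p 0.0807 and 0.557). With the mouse pool as a block, since a pool gave both subsets, Cd72 (3.90, adjusted p 0.00408) and Lair1 (2.05, 0.0206) passed, whereas Cd300a (2.06, 0.102) and Sirpa (1.87, 0.129) did not. Cd300a was also lost with gene length offsets (1.83, 0.0616), and Sirpb1a passed with DESeq2 (1.35, 0.0103) and with length offsets (1.57, 0.0109). Sirpa was also lost without replicate 2 or 3 of WT cDC1, KO-labelled cDC1 or KO-labelled cDC2 (edgeR adjusted p 0.0504 to 0.0658). With replicates 2 and 3 only, 9 members passed, as did 5157 of the 13461 genes tested.

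Between the WT subsets most members were lower in cDC1. Of the 10, 8 were lower and 0 higher, against 10.9% of all genes lower and 21.2% called in either direction. The largest differences were those of Sirpb1a, 8.36 ± 1.87 CPM in cDC1 and 483 ± 79.8 CPM in cDC2 (log2 fold change -5.85), and Cd72 (-5.00). Sirpa differed by -4.75, Cd300lf by -4.27, Lair1 by -3.49, Cd300a by -2.79, Tyrobp by -1.74 and Lilrb4a by -1.64, with edgeR adjusted p from 1.21e-07 for Sirpb1a to 0.00277 for Lilrb4a. No WT cDC1 library overlapped a WT cDC2 library in any of the 8, as for 16.2% of all genes. Cd300c (-0.65) and Cd300e (0.34) did not pass, with adjusted p of 0.601 and 0.598. In the fit of replicates 2 and 3 only, which called 6391 of 13461 genes, Cd300c was called with the other sign (1.27, edgeR adjusted p 0.028). This comparison and the genotype comparison in cDC1 share the WT cDC1 libraries, so their signs are not independent.

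Under the KO label 6 members were lower in cDC1 than in cDC2, against 8.43% of all genes lower and 16.9% called in either direction. These were Sirpb1a (-4.46), Cd300lf (-3.24), Sirpa (-2.88), Lair1 (-1.45), Tyrobp (-1.33) and Cd72 (-1.12), with edgeR adjusted p of 0.0157 or less. The Tyrobp call was lost without KO-labelled cDC1 replicate 1, 2 or 3 or KO-labelled cDC2 replicate 2 or 3 (adjusted p 0.0526 to 0.0744). Cd300a, at -0.78, narrowly missed the threshold (adjusted p 0.0511) and was called in 8 alternative fits. With replicates 2 and 3 only, 9 members were lower, with Cd300a (-1.11, edgeR adjusted p 5.47e-06), Cd300e (-1.02, 0.000448) and Lilrb4a (-0.75, 0.0142) added. That fit called 6620 of 13461 genes, 3260 of them lower. In order of mean level, WT cDC1 was lowest, KO-labelled cDC1 next and cDC2 highest for the 5 members that rose.

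Set against the cDC2 mean of the same label, the cDC1 level of Cd72 went from 3.13% in WT to 46.0% under the KO label. That of Cd300a went from 14.4% to 58.2%, that of Lair1 from 8.87% to 36.6% and that of Sirpa from 3.73% to 13.6%. Sirpb1a reached only 4.56%, from 1.73%. The members that rose therefore held quite unequal shares of their cDC2 level. Cd300e went the other way, from 126% to 55.3%.

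**Figure D3:**
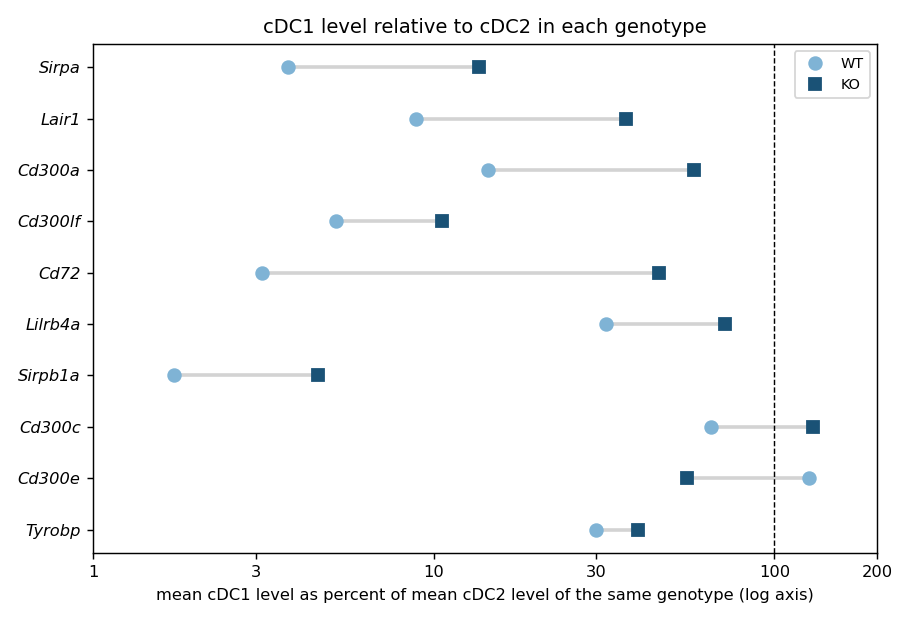
Mean cDC1 CPM as a percent of the mean cDC2 CPM with the same genotype label, on a log axis, circles for WT and squares for the KO label. The other 9 genes move right, and under the KO label they lie between 4.56% for Sirpb1a and 129.9% for Cd300c, while Cd300e moves left from 126% to 55.3%. The move of Cd300c depends on WT cDC2 replicate 1, at 10.4 CPM against 1.07 and 1.09 CPM in the other WT cDC2 libraries. For Tyrobp the WT and KO-labelled means were 345 and 358 CPM in cDC1, and 1149 and 901.5 CPM in cDC2.

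Markers of cDC2 moved in the same libraries. Over all genes tested, 3.6% were higher and 1.72% lower in KO-labelled cDC1. Of the 8 cDC2 markers, 7 were higher in KO-labelled cDC1, all but Esam. The summed level of the 8 was 79.4 to 85.1 CPM in WT cDC1 and 578 to 615 CPM in KO-labelled cDC1. In cDC2 it was 3966 to 5209 CPM in WT and 2916 to 6966 CPM under the KO label. Most of the cDC2 sum was S100a4, at 3348 ± 614 CPM in WT and 3792 ± 2122 CPM under the KO label. In KO-labelled cells the markers' cDC1 level as a percent of cDC2 ran from 5.26% for S100a4 to 92.0% for Itgam, the gene of CD11b. The sum of the 9 cDC1 markers was 6898 to 8550 CPM in WT and 6039 to 6816 CPM in KO-labelled cDC1, and 1 of them, Itgae (CD103), was lower (-4.02, edgeR adjusted p 0.00296). This sum holds moves in both directions that were not called. In WT and KO-labelled cDC1, Xcr1 stood at 999 ± 111 and 456.5 ± 39.8 CPM and Irf8 at 2134 ± 173 and 1307 ± 95.9 CPM. Cd8a stood at 996 ± 274 and 1509 ± 41.8 CPM. No cDC2 or monocyte marker was at 0 reads in either cDC1 group. The part of other cells in the members' values was not tested.

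Of 10 monocyte markers, 3 were higher (Ms4a4c, Cx3cr1 and Ccr2) and 1 lower (Treml4) in KO-labelled cDC1, with sums of 1218 to 2764 CPM in WT and 3159 to 4348 CPM under the KO label. Most of that sum was Nr4a1, at 1396 ± 837 and 2765 ± 604 CPM. The classical monocyte gene Ly6c2 stood at 5.43 ± 2.80 and 4.79 ± 1.26 CPM. Of 11 red pulp macrophage markers 1 was higher (Cd163) and 1 lower (Vcam1), and of 9 plasmacytoid dendritic cell markers 2 were lower (Ccr9 and Pacsin1). The shares over all genes tested were 3.6% higher and 1.72% lower. No tested marker of T cells, NK cells or neutrophils was called, 4 of each list being testable, and neither was any of the 6 shared dendritic cell markers.

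Levels of different genes can be compared only per length, in RPKM (CPM per kilobase of the deposited gene length). Tyrobp was the highest member in every group, at 606 ± 232 RPKM in WT cDC1, 629 ± 52.5 in KO-labelled cDC1, 2020 ± 519 in WT cDC2 and 1584 ± 456 in KO-labelled cDC2. Next in WT cDC1 came Cd300a at 17.4 ± 2.85 RPKM and Cd300e at 13.2 ± 3.21 RPKM, and Cd72 was last at 1.12 ± 0.216 RPKM. In WT cDC1 replicates 1, 2 and 3 Cd300a stood above Cd300e each time (14.3, 17.99 and 19.9 against 9.535, 15.52 and 14.54 RPKM). In KO-labelled cDC1 Cd300a led the receptors at 69.3 ± 7.01 RPKM, followed by Sirpa at 24.2 ± 2.82 and Lair1 at 23.1 ± 1.24, which did not differ beyond their spread. Cd72 at 16.7 ± 2.65 and Sirpb1a at 15.7 ± 3.53 RPKM also lay within their spread of each other, and Cd300e was last at 3.66 ± 0.483 RPKM. In WT cDC2 the first receptor was Sirpb1a at 392 ± 64.8 RPKM, then Sirpa at 157 ± 35 and Cd300a at 121 ± 18.5 RPKM.

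The balance of receptor types was described by summed RPKM. The 6 inhibitory receptors (Sirpa, Lilrb4a, Lair1, Cd300a, Cd300lf and Cd72) summed to 37.8 ± 1.97 RPKM in WT cDC1 and 147 ± 2.94 in KO-labelled cDC1. The 3 activating receptors (Sirpb1a, Cd300c and Cd300e) summed to 23.9 ± 4.01 and 24.6 ± 2.45 RPKM. The activating sum overlapped between the labels, since Sirpb1a was higher and Cd300e lower. The ratio of inhibitory to activating transcripts was 1.87, 1.43 and 1.51 in WT cDC1 and 6.54, 6.12 and 5.42 in KO-labelled cDC1. In cDC2 it was 1.11 ± 0.0635 in WT and 1.31 ± 0.166 under the KO label. These sums follow from the members chosen and are given without a test; transcripts do not show protein on the surface.

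**Figure D4:**
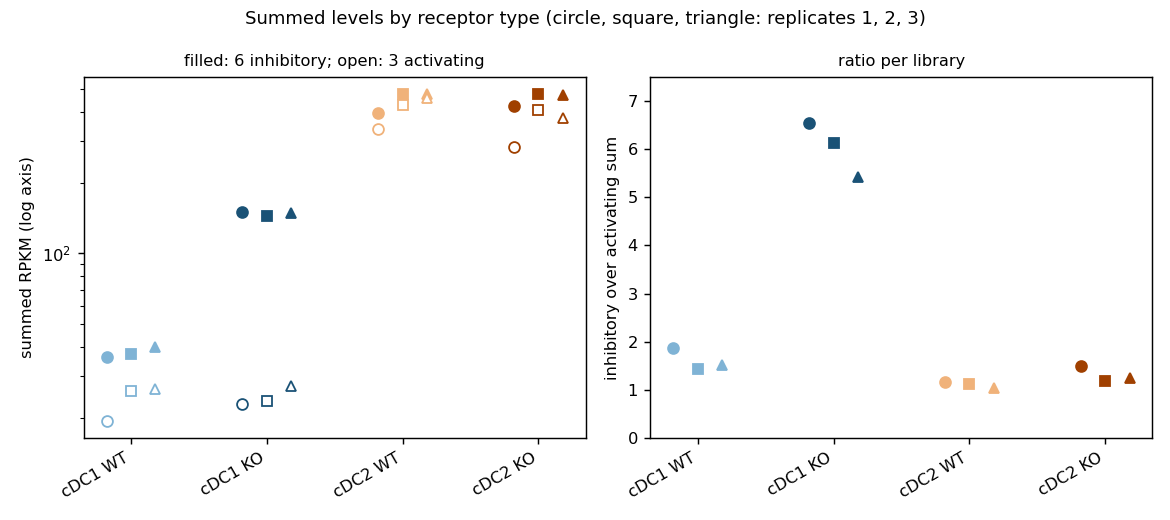
Left, summed RPKM of the 6 inhibitory (filled) and 3 activating (open) receptors in each library on a log axis; right, their ratio, with symbols for replicates 1, 2 and 3. The ratio lies between 5.42 and 6.54 in KO-labelled cDC1 and between 1.04 and 1.87 in the other 3 groups.

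Of the receptors, 4 lie in the CD300 cluster on chromosome 11, where 12 genes, 11 of them CD300 genes, span 246 kb from Cd300a at 114889152. All 11 CD300 genes passed the filter. In cDC1 Cd300a was higher and Cd300e, 163 kb away, lower under the KO label, and no other CD300 gene of the cluster was called. Of all genes tested 5.32% were called. Among the CD300 genes not called, Cd300lb, Cd300ld2, Cd300ld3, Cd300ld4 and Cd300ld5 were near the floor, with means from 0.0523 to 0.851 CPM in WT cDC1. A difference could be missed at such levels. Rab37, a Rab GTPase gene of the cluster, was lower (-1.57, edgeR adjusted p 0.0355), from 3.15 ± 1.75 to 1.05 ± 0.185 CPM, and this call was lost in 10 alternative fits. Cd300lf lies within the span of Rab37 on the other strand, and reads of such a pair cannot be told apart where counting ignores strand. Cd300c2, which lies between Cd300a and Cd300e, had 86.4 ± 36.5 CPM in WT cDC1 and 53.9 ± 3.99 CPM in KO-labelled cDC1 (-0.68, adjusted p 0.302).

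**Figure D5:**
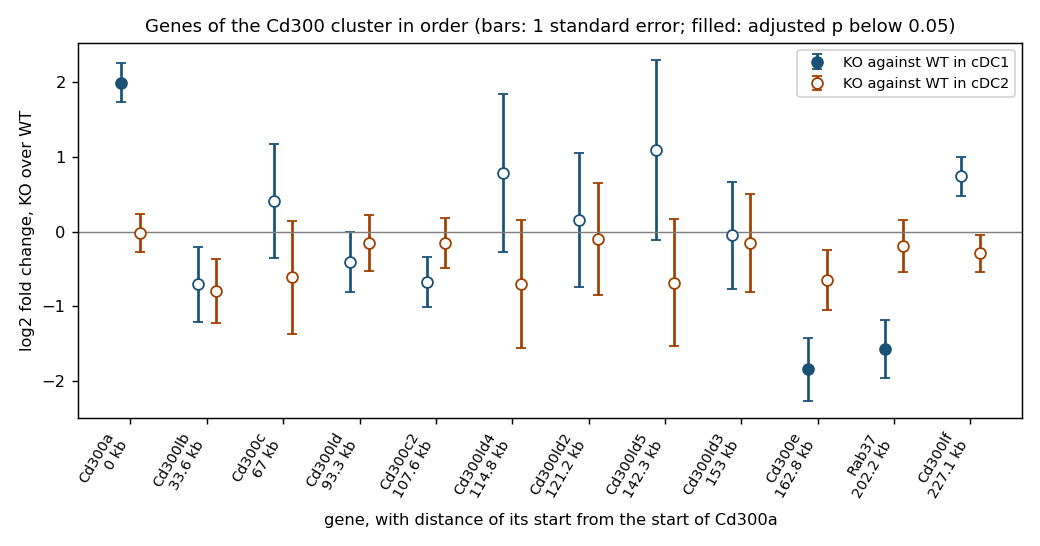
Log2 fold change between the genotype labels for the 12 genes of the CD300 cluster in chromosomal order, with the distance of each start from that of Cd300a in kb; bars are 1 standard error and filled points have an adjusted p below 0.05. In cDC1 Cd300a is filled above 0 and Cd300e and Rab37 below it, and no cDC2 point is filled.

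Relatives outside the 10 members were followed in a list chosen with earlier results of these data known. Over all genes tested, 3.6% were higher and 1.72% lower in KO-labelled cDC1. Of 12 relatives in the SIRP, LILR/PIR and CD300 families, 3 were higher and 0 lower there. Besides Sirpb1b and Sirpb1c this was Cd300lg, a CD300 family gene outside the members, at 0.660, 0.255 and 0.520 CPM in WT and 19.7, 16.0 and 14.4 CPM in KO-labelled cDC1 (log2 fold change 5.12, SE 0.74, edgeR adjusted p 0.00141). In cDC2 Cd300lg stood at 9.0 ± 9.84 CPM in WT and 10.6 ± 1.20 CPM under the KO label. The Sirpb1c call was lost with limma-voom and without WT cDC1 replicate 3 or KO-labelled cDC1 replicate 3 (adjusted p 0.0521 to 0.0762). Pirb, the main inhibitory receptor of the PIR family, stood at 105 ± 6.85 and 151 ± 9.61 CPM and was not called (0.52, adjusted p 0.102).

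Other ITIM receptors gave 4 higher and 0 lower of 14, against 3.6% and 1.72% of all genes tested. Fcgr2b, the inhibitory Fc gamma receptor, had 55.3, 59.4 and 54.1 CPM in WT cDC1 and 327, 309 and 332 CPM in KO-labelled cDC1 (log2 fold change 2.52, SE 0.27, edgeR adjusted p 0.000162). Fcgr2b was at 45.7 ± 18.6 CPM in WT cDC2 and 48.5 ± 9.03 CPM in KO-labelled cDC2, and every KO-labelled cDC1 library lay above every cDC2 library. The sialic acid receptors Siglecf (5.82), Siglecg (1.34) and Cd33 (2.36) were also called. In WT and KO-labelled cDC1, Siglecf stood at 0.382 ± 0.336 and 21.9 ± 1.64 CPM and Cd33 at 0.332 ± 0.307 and 1.76 ± 0.328 CPM. Siglecg stood at 12.3 ± 3.38 and 31.2 ± 0.266 CPM. Each call was lost in some alternatives, with adjusted p up to 0.172 for Siglecf (limma-voom), and 0.0832 for Siglecg and 0.118 for Cd33 (edgeR). Siglecf lost its call with limma-voom and without WT cDC1 replicate 2 or 3, Siglecg without those or KO-labelled cDC1 replicate 3, and Cd33 with limma-voom, in the fit on the compared libraries only, and without WT cDC1 replicate 3 or any 1 of the KO-labelled cDC1 replicates 1, 2 and 3 or KO-labelled cDC2 replicates 2 and 3.

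Receptors that signal through DAP12 or the Fc receptor gamma chain gave 1 higher and 1 lower of 15 tested. Over all genes tested the shares were 3.6% higher and 1.72% lower. Clec5a, a DAP12-coupled lectin, had 0.770, 0.918 and 1.56 CPM in WT cDC1 and 11.8, 14.5 and 14.8 CPM in KO-labelled cDC1 (log2 fold change 3.66, SE 0.38, edgeR adjusted p 0.00013). Treml4, a DAP12-coupled receptor of dendritic cells and macrophages, fell by 0.93 on the log2 scale (adjusted p 0.0127), from 303 ± 47.0 to 159 ± 4.31 CPM. The Treml4 call was lost without WT cDC1 replicate 2 or any 1 KO-labelled cDC1 library (adjusted p 0.0638 to 0.0854).

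Downstream of the receptors, 3 of 19 tested adaptors and kinases were higher and 0 lower, against 3.6% and 1.72% of all genes tested. Beside Fcer1g these were Fgr, a Src family kinase, from 59.7 ± 4.17 to 179.8 ± 3.21 CPM (1.59, edgeR adjusted p 0.000632), and Lcp2, the gene of the adaptor SLP-76 (1.04, adjusted p 0.0125). The Lcp2 call was lost without WT cDC1 replicate 2 or 3 or KO-labelled cDC1 replicate 2 or 3 (adjusted p 0.0569 to 0.0692). Syk, the kinase that binds ITAMs, did not pass, at 76.6 ± 39.4 and 141 ± 15.3 CPM (0.88, adjusted p 0.230).

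On the inhibitory side, 3 of the 10 genes in the list of ITIM-recruited phosphatases and related adaptors were higher and 0 lower. The shares over all genes tested were 3.6% and 1.72%. Ptpn6, the gene of the phosphatase SHP-1, had 172, 146 and 128 CPM in WT cDC1 and 334, 395 and 409 CPM in KO-labelled cDC1 (log2 fold change 1.35, SE 0.20, edgeR adjusted p 0.00134). The other 2 encode adaptors, Sh2d1b1 (EAT-2, 3.06, edgeR adjusted p 0.00048) and Dok3 (2.18, adjusted p 0.00533). Dok3 was low, at 0.689 ± 0.121 CPM in WT and 3.14 ± 0.396 CPM in KO-labelled cDC1. Ptpn11, the gene of the phosphatase SHP-2, stood at 94.3 ± 45.9 and 108 ± 9.38 CPM and was not called (0.19, adjusted p 0.776). The phosphatase gene Inpp5d, of SHIP-1, was not called either (-0.01, adjusted p 0.993).

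Of the members' ligands 6 could be tested, and 2 were higher in KO-labelled cDC1, as were 3.6% of all genes tested. Sema4d, which encodes the CD72 ligand CD100, stood at 145 ± 53.4 CPM in WT and 303 ± 15.6 CPM in KO-labelled cDC1 (1.06, edgeR adjusted p 0.0274). The Sema4d call was lost in the fit on the compared libraries only and without WT cDC1 replicate 2 or 3 or any 1 KO-labelled cDC1 library (adjusted p 0.0760 to 0.156). Col4a2, a collagen gene, rose from 0.423 ± 0.146 to 7.29 ± 1.05 CPM (4.10, adjusted p 0.00109). Cd47, the gene of the SIRP alpha ligand, stood at 305 ± 56.7 and 268 ± 20.8 CPM and was not called (-0.18, adjusted p 0.678). In cDC2 no gene of the lists of relatives, other ITIM receptors, coupled receptors, adaptors and kinases, phosphatases or ligands was called.

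Genes with a pattern like that of a member were found by the root mean square difference of centred log2(CPM + 1) over all 12 libraries. For Cd300a the nearest genes that are no members were Ms4a6c (0.157) and Hilpda (0.228). Ms4a6c stood at 80.6, 328, 590.0 and 625 CPM on average in WT cDC1, KO-labelled cDC1, WT cDC2 and KO-labelled cDC2, and Cd300a at 80.8, 322, 560.0 and 553 CPM. For Lair1 they were Abi3 (0.24) and Ms4a4b (0.284), for Sirpa Ddr1 (0.27) and Bex6 (0.343), and for Tyrobp Otulinl (0.172) and Ggct (0.179). These distances describe the same libraries in which the members were measured and were not tested.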

How the data were processed

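The authors deposited unnormalized counts of reads for each Entrez gene, with its length; per the submitters' processing notes they were made with featureCounts on GRCm38 (mm10), and the aligner and tool versions are not given in the sources used here. PolyA RNA went through a TruSeq preparation, per the labels' protocols. RefSeq gave symbols for 25275 of the 27179 genes. Groups came from the labels, and 0 columns were left unused.

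The 10 members and the gene lists were chosen with earlier results of these data known. One edgeR 4.0.16 model in R 4.3.3 was fitted to all 12 libraries: filterByExpr (13415 genes kept), TMM (trimmed mean of M values) scaling, 4 group means, and robust quasi-likelihood tests with Benjamini-Hochberg adjustment over all genes tested, called below 0.05. The standard error is the size of the log2 change divided by the root of the F statistic. CPM used TMM-scaled totals, and likeness a pseudocount of 1. The script was tested on simulated data. Named were all 10 members, Zfp366, up to 4 called genes of each list by smallest p, list genes whose level stands beside a result, and the 2 genes nearest to Sirpa, Lair1, Cd300a and Tyrobp; the other Cd300 cluster genes were added as neighbours.

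Alternatives were no filter, DESeq2's size factors, DESeq2 1.42.0, limma-voom (limma 3.58.1), only the compared libraries, gene length offsets (loess, span 0.5), replicate blocks, each library left out in turn (an arm left with 2), and replicates 2 and 3 only. Mouse pools pair the subsets per the labels; deviations from the group means within a pool correlated at -0.28, -0.21 and -0.13 in WT and 0.27, 0.14 and 0.22 in KO-labelled pools. Replicates are mouse pools. The protein motif counts planned were not made, since no protein sequence was used here.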

Additional observations from a re-analysis of the deposited data

Results flagged for a closer look

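For 4 members the genotype effect differed between the subsets by the test of the difference itself. In log2 units, cDC1 effect minus cDC2 effect, it was 3.87 for Cd72 (3.90 in cDC1 against 0.02 in cDC2) and 2.04 for Lair1 (2.03 against -0.01). It was 2.01 for Cd300a (1.99 against -0.02) and 1.86 for Sirpa (2.05 against 0.19). With the mouse pool as a block, Cd300a (adjusted p 0.102, edgeR) and Sirpa (0.129) did not pass, and Cd72 (0.00408) and Lair1 (0.0206) did. Cd300a was also lost with gene length offsets (0.0616), and Sirpa without any 1 of 6 libraries, at adjusted p of 0.0504 to 0.0658.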

How the results depend on the processing

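Number of members called: leaving out 1 library at a time gave 4 to 7 between the genotypes in cDC1, 0 in cDC2, 3 to 4 for the difference of the effects, 8 between the WT subsets and 5 to 8 between the KO-labelled subsets. With replicates 2 and 3 only it was 8, 2, 9, 9 and 9. Of the 13461 genes tested in that fit, 6438, 1039, 5157, 6391 and 6620 were called in the same order. With 1 library left out, calls in cDC1 over all genes ranged from 318 (WT cDC1 replicate 2) to 3052 (WT cDC1 replicate 1). DESeq2 called 1318. Same-numbered WT and KO-labelled libraries did not deviate together (correlations -0.02, -0.16 and 0.13 in cDC1, -0.01, -0.10 and -0.01 in cDC2), and a replicate block left 6 members called in cDC1 and 0 in cDC2, or 7 and 0 with gene length offsets. The mouse pool block gave 2 for the difference, and changed no other member call between subsets.

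Signs turned only where a difference was not called in the fit reported. Without 1 library, the cDC2 genotype difference ranged from -0.151 to 0.213 for Cd300a, -1.10 to 1.37 for Cd300c, -0.081 to 0.191 for Cd72, -0.164 to 0.108 for Lair1 and -0.447 to 0.015 for Lilrb4a. That of Tyrobp in cDC1 ranged from -0.223 to 0.29, the subset difference of Cd300e in WT from -0.043 to 0.673, and Cd300c from -1.13 to 1.34 (WT subsets), -0.004 to 0.805 (KO-labelled subsets) and -0.956 to 1.495 (difference of effects). DESeq2 and its size factors in edgeR gave 0.003 for Cd300a and 0.013 for Lair1 in cDC2, and no filter gave 0.004 for Lair1. Cd300c was 0.075 in cDC2 with the replicate block and length offsets, and 0.211 between WT subsets with the mouse pool block. With replicates 2 and 3 only, the cDC2 values were 0.343 for Cd300a, 1.75 for Cd300c and -0.15 for Sirpa, Tyrobp in cDC1 was -0.296, and Cd300c was 1.27 (WT subsets), -0.351 (KO-labelled subsets) and -1.62 (difference). The cause was not tested. Cd300c had 12 to 298 reads a library, the most in WT cDC2 replicate 1.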
